A study of Mus musculus with 4 samples.

Results

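The gene group described here comprises 10 keratinocyte genes, chosen by gene symbol from the 24346 symbols listed in each library. They are the interleukin-1 (IL-1) family cytokine genes Il1a, Il1b, Il18 and Il33, the antagonist gene Il1rn, the inflammasome genes Casp1 and Pycard, and the alarmin genes Tslp, Il23a and Csf2. All 10 symbols were found in all 4 libraries. The libraries were made from polyadenylated RNA of hair follicle stem cells (HFSCs), cells of C3H/HeN mice that had been sorted from adult dorsal skin for CD49f and CD34 and grown in a serum-free epithelial medium, M-CnT, without feeder cells. HFSCs after 10 passages (10p-HFSCs) and after 48 passages (48p-HFSCs) were each represented by 2 libraries. Both groups carried no engineered allele and received no added Wnt protein or inhibitor for sequencing, as far as the sources describe it. The sources used here do not say whether the 2 libraries of a group came from separate cultures or mice, so that the p-values measure the spread between these libraries, which may be technical.

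Keratinocytes store IL-1α, IL-18 and IL-33 and release them when the epidermis is injured or infected. IL-1β and IL-18 are made as inactive precursors that caspase-1 cleaves inside an inflammasome, where the adaptor ASC, encoded by Pycard, joins a sensor protein to caspase-1. IL-1α and IL-33 can act without this cleavage, and the product of Il1rn occupies the IL-1 receptor without activating it. TSLP, the p19 subunit of IL-23 encoded by Il23a, and GM-CSF encoded by Csf2 are cytokines through which epithelial cells act on dendritic cells, lymphocytes and myeloid cells.

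The deposited values were FPKM, by the paper's definition fragments of a gene scaled by its exon length and by all fragments mapped in the library. The submitters' processing notes name the program Cuffdiff, and the sources used here do not state its scaling of libraries. Summed FPKM ran from 581516 in replicate 1 of 10p-HFSCs to 1.41e+06 in replicate 2 of 48p-HFSCs. FPKM values carry no depth. Ratios of low FPKM values between libraries placed the other 3 libraries at 46.7% to 82.9% of the depth of replicate 1 of 10p-HFSCs. Replicate 2 of 48p-HFSCs was the shallowest. These percentages measure depth only if libraries were scaled by mapped fragments, and otherwise give the ratio of the scaling factors. Short transcripts were higher in replicate 2 than in replicate 1 of both groups, with a Spearman's rho of -0.49 across genes between this difference and transcript length in 10p-HFSCs and of -0.37 in 48p-HFSCs. The keratinocyte markers Krt5 (1473 or more in every library), Krt14 (1217 or more) and Itga6 (20.8 or more) were high. Cd34, the marker used for the sort, did not exceed an FPKM of 0.234 in any library. Lhx2, a transcription factor of follicle stem cells, was at most at 0.024. The RNA values of these genes go against the label, which rests on a sort by surface protein. The paper describes most cells of both groups as positive for CD34 protein, and Cd34 RNA as maintained by quantitative PCR. It also reports significantly higher Lhx2 and Sox9 RNA by quantitative PCR after long-term culture. FPKM values do not measure protein, and the cause of the difference in Cd34 RNA was not tested. Other follicle stem cell markers were present, with Sox9 at 45.6 and 44.2 at 10 passages against 20.2 and 8.31 at 48 passages, and Krt15 at 136 and 82.6 against 425 and 18.8. The fibroblast genes Vim and Col1a2 were at 59.3 or more in 10p-HFSCs and at most at 3.08 in 48p-HFSCs, whereas Dcn and Lum were listed at 0 in all libraries. The part of these differences in the results below was not tested.

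The levels of the 10 genes were low in 10p-HFSCs and differed widely in 48p-HFSCs. Their FPKM summed to 13.3 and 13.9 in the 10p-HFSC libraries and to 215 and 288 in the 48p-HFSC libraries. In 10p-HFSCs, Il1rn had the highest mean FPKM of the 10 genes (4.34), and its range overlapped with that of Il18 (3.90), which came next. In 48p-HFSCs the order was led by Tslp (mean FPKM 130.1), Il18 (49.1), Il1a (25.3) and Casp1 (22.9), where Il1a and Casp1 overlapped between libraries. Il1rn stood sixth in 48p-HFSCs and overlapped with Csf2, and Il1b and Pycard were the lowest and overlapped with each other.

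**Figure D1:**
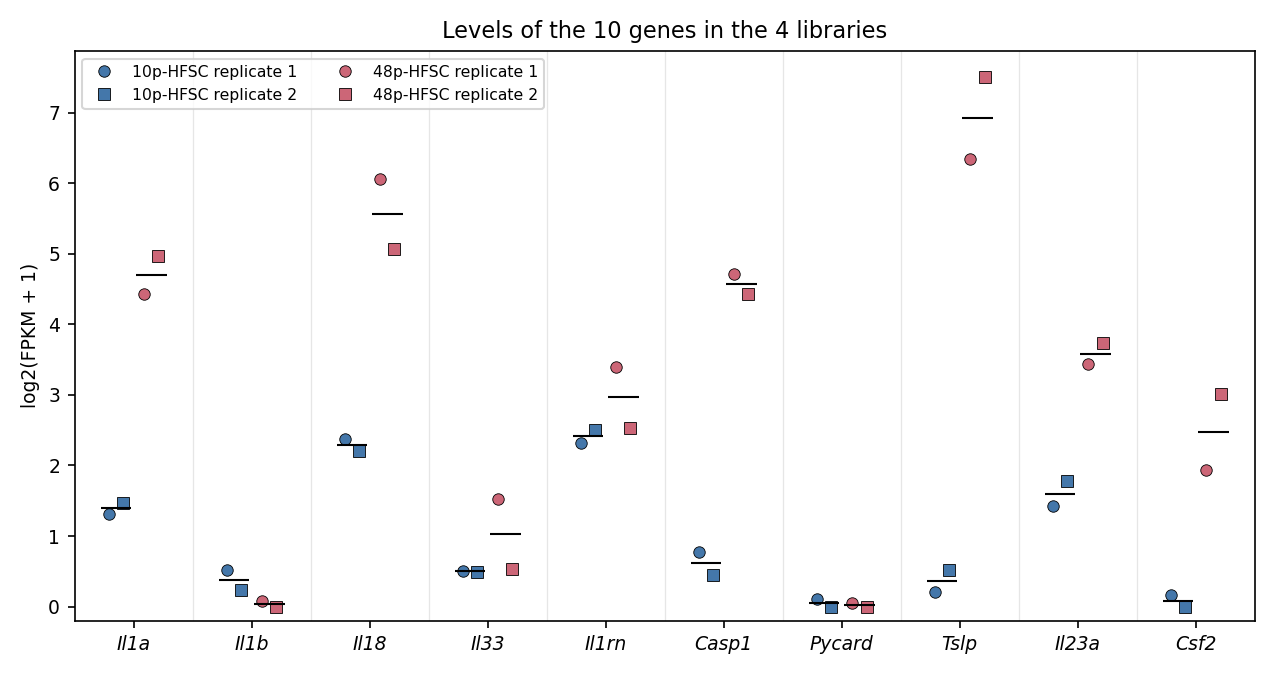
Levels of the 10 genes on the log2(FPKM + 1) scale, with 1 point for each library (circles replicate 1, squares replicate 2, blue 10p-HFSCs, red 48p-HFSCs) and a line at the mean of each group. Both 48p-HFSC points of Tslp, Casp1, Il1a, Il18, Il23a and Csf2 lie well above the 10p-HFSC points, whereas Il1b and Pycard lie near 0 in all libraries.

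Groups were compared on the log2(FPKM + 1) scale with limma, over the 11018 genes that reached an FPKM of 1 in 2 or more libraries. Calls required a Benjamini-Hochberg adjusted p-value under 0.05 and a log2 difference of 1 or more in size, and a difference on this scale understates the change of genes with low FPKM. Of the 10 genes, 6 were called higher in 48p-HFSCs, Il1rn was tested and not called, and 3 (Il1b, Il33 and Pycard) were too low to be tested. Among all genes tested, 10.8% were called higher and 9.15% lower, 19.9% in all. An unadjusted limma p-value under 0.05 was found in 37.4% of all genes tested. The 6 called genes had one by the rule for calls, so that it is no further evidence. Of the 6 called genes, Casp1, Tslp and Csf2 passed the filter through their 48p-HFSC values only, so that they could pass only by differing. Il1a, Il18, Tslp, Il23a and Csf2 also stand in a list that the study drew from these same libraries as higher in 48p-HFSCs, so that their direction here is not independent evidence of it. The median log2 difference of the 7 tested genes was 3.27, and that of all genes tested was -0.03. The 7 include Casp1, Tslp and Csf2, whose increase was a condition of passing the filter. In all 7 tested genes, Il1rn included, the lowest 48p-HFSC value exceeded the highest 10p-HFSC value, a pattern found in 31.7% of all genes tested, and the 3 that passed only through 48p-HFSCs had to show it. Without replicate 1 or without replicate 2 of 10p-HFSCs, 1 of the 10 genes was called, Tslp, since the spread then rests on the 48p-HFSC pair alone. The adjusted p-values of the other 5 were then from 0.056 to 0.20, with differences in the same direction. Without either 48p-HFSC library the 6 called genes kept their direction. The spread then rests on the 10p-HFSC pair alone, in which Tslp and Csf2 are near 0. Rescaling to TPM, in which all libraries have equal sums, moved the median of all genes to -0.56 and left 5 of the 10 genes called.

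**Figure D2:**
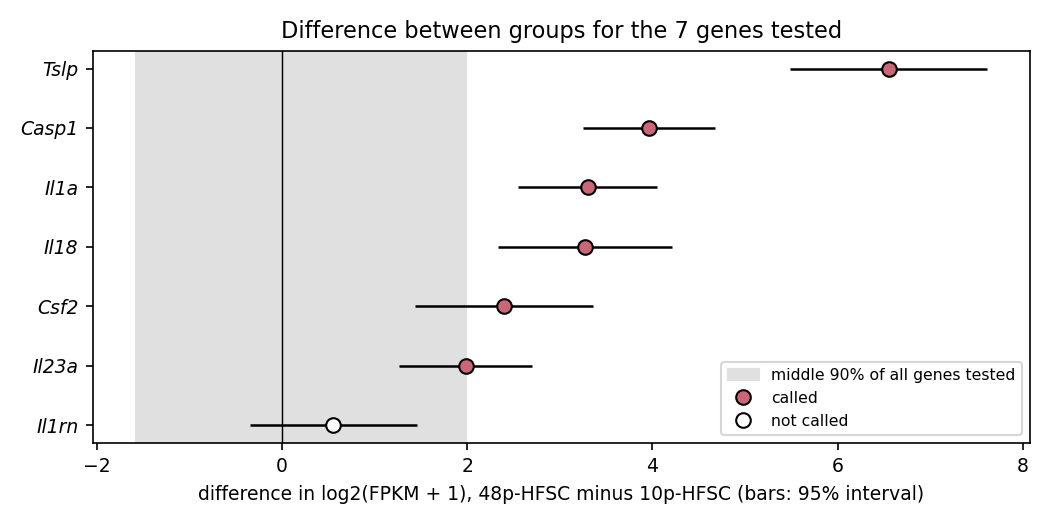
Difference in log2(FPKM + 1) between 48p- and 10p-HFSCs for the 7 genes tested, with 95% intervals from limma as bars, filled points for called genes and a grey band for the middle 90% of all 11018 genes (-1.58 to 1.99). Tslp, Casp1, Il1a, Il18 and Csf2 lie beyond the band, Il23a (1.98) at its edge, and the interval of Il1rn (-0.35 to 1.46) includes 0.

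Among the agonist ligands, Il1a and Il18 rose while Il1b stayed near 0. Il1a (chr2:129299610-129309972, minus strand, mm10) encodes IL-1α, a cytokine that is active in its uncleaved form and that keratinocytes hold ready for release. It had an FPKM of 1.49 and 1.77 at 10 passages against 20.5 and 30.2 at 48 passages. The groups were far apart, with means of 1.63 ± 0.20 and 25.3 ± 6.85 (SD, n = 2 each) and a ratio of 15.5. In bulk RNA such as this, fewer cells of a type and less RNA per cell cannot be told apart. The log2 difference was 3.30 (standard error 0.31, limma adjusted p = 0.0019). Il1b (chr2:129364570-129371139, minus strand), the gene of IL-1β, lies next to Il1a on chromosome 2, with 54.6 kb between them and no protein-coding gene in the gap. Its FPKM was 0.435 and 0.182 at 10 passages against 0.052 and 0 at 48 passages. Both 48p-HFSC values lay below both 10p-HFSC values, a pattern of 34.3% of all genes tested. After division by relative depth, the Il1b values stood at 10, 3, 1 and 0 times the lowest value above 0, each whole within 2%, so that the 48p-HFSC value may rest on very few reads. Its antisense gene Il1bos was at 0.175 to 0.247 in the 4 libraries, and reads of this pair can be told apart only by strand. The strand setting of the counting is not given in the sources used here. Il1b did not pass the filter, and no direction is claimed for it.

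The sequences before the start sites of Il1a and Il1b, neighbours with unlike levels, and of Casp1 are given here, as 250 bases of the strand of the gene from RefSeq, build GRCm38.p6. Il1a (chr2:129309973-129310222, minus strand), Il1b (chr2:129371140-129371389, minus strand) and Casp1 (chr9:5298267-5298516, plus strand) were searched on both strands for TGANTCA (AP-1), TTCNNNGAA (GAS, a STAT site) and TATAAA (the box at which the polymerase complex assembles), with overlaps between motifs allowed. Capitals mark the matches.
Il1a: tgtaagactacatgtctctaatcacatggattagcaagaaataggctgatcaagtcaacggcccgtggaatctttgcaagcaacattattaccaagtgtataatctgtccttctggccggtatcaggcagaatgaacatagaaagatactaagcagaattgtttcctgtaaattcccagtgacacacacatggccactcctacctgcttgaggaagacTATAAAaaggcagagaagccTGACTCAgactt
Il1b: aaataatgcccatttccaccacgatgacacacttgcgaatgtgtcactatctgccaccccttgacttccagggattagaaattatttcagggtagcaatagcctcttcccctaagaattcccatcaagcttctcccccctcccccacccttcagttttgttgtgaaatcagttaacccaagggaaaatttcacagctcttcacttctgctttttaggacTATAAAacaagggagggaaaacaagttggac
Casp1: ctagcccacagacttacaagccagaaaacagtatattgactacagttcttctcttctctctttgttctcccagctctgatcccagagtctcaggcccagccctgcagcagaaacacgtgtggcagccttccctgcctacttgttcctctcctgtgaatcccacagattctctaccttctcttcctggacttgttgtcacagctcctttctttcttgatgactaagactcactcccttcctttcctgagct
The Il1a window held TATAAA, starting 32 bases before the start site, and the AP-1 motif, starting 12 bases before it. The Il1b window held TATAAA, starting 31 bases before the start site, and no other motif. In the Casp1 window none of the 3 motifs was found. Of 32851 windows of the same length, 12.4% held TATAAA, 6.75% the AP-1 motif and 7.02% the GAS motif. These matches describe letters and not bound sites. A window was found for 8 of the 10 genes. The windows of Csf2 and Pycard likewise held none of the motifs, that of Il18 held TATAAA on the opposite strand, and both windows of Il33 held TATAAA. RefSeq start sites behind the Csf2 and Il18 windows lie outside the gene positions given in this text. The bases between these windows and those positions were not searched. Of the 3 windows of Il1rn, 1 held the AP-1 motif.

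Il18 (chr9:50554827-50581840, plus strand) encodes IL-18, an activator of interferon-γ production by lymphocytes that is stored as a precursor. Its FPKM was 4.198 and 3.599 at 10 passages against 65.5 and 32.6 at 48 passages. All values of 48p-HFSCs were above those of 10p-HFSCs, although the 48p-HFSC libraries differed between themselves. The log2 difference was 3.27 (standard error 0.38, limma adjusted p = 0.0037). The means were 3.90 ± 0.42 and 49.1 ± 23.2 (SD, n = 2 each), a ratio of 12.6. Il18 overlaps with Bco2 and Tex12 on the opposite strand, so that the same limit applies. Bco2 was at most at 0.378 and Tex12 was listed at 0 in all libraries. Il33 (chr19:29925114-29960718, plus strand) encodes a nuclear alarmin, IL-33, which is released from damaged barrier cells. It was at an FPKM of 0.419 and 0.406 at 10 passages against 1.88 and 0.449 at 48 passages. Only replicate 1 of 48p-HFSCs stood apart from the other libraries, and Il33 did not pass the filter.

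Il1rn (chr2:24336853-24351494, plus strand), the gene of the IL-1 receptor antagonist, was not called. Its FPKM was 4.0 and 4.67 at 10 passages against 9.57 and 4.79 at 48 passages. Replicate 2 of 48p-HFSCs lay just above the 10p-HFSC libraries and replicate 1 further above them. The log2 difference was 0.55 (95% interval -0.35 to 1.46, limma adjusted p = 0.31), so that a rise of this size or a small decrease could not be told apart at this spread. Without replicate 1 of 48p-HFSCs the difference was 0.12, and without replicate 2 it was 0.99. The ratio of Il1a to Il1rn within a library does not depend on the scaling between libraries. This ratio was 0.373 and 0.379 at 10 passages against 2.14 and 6.30 at 48 passages. Il1a was thus listed below its antagonist in both 10p-HFSC libraries and above it in both 48p-HFSC libraries. The mean log2 ratio differed by 3.29, where the larger of the within-group SDs was 1.10 (n = 2 per group). With 2 libraries against 2, the smallest two-sided p of an exact permutation test is 0.333, and the ratio was not tested. The ratio of Il1b to Il1rn was 0.109 and 0.039 at 10 passages. At 48 passages it was 0.0055 in replicate 1, with Il1b listed at 0 in replicate 2.

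The inflammasome genes Casp1 and Pycard differed in their course. Casp1 (chr9:5298517-5307265, plus strand), the gene of the protease that cleaves the precursors of IL-1β and IL-18, had an FPKM of 0.709 and 0.365 at 10 passages against 25.3 and 20.5 at 48 passages. The libraries of each group lay close together relative to the distance between groups. The log2 difference was 3.96 (standard error 0.29, limma adjusted p = 0.0011). The means were 0.537 ± 0.243 and 22.9 ± 3.37 (SD, n = 2 each), a ratio of 42.7. Pycard (chr7:127989708-127993867, minus strand), the gene of the adaptor ASC, was listed at 0.076 and 0 at 10 passages against 0.031 and 0 at 48 passages. The 2 values above 0 stood at 3 and 1 times the lowest after division by relative depth. None of 40 genes of RNA polymerase II, complex I and the proteasome was listed at 0 in any library. This check covers other genes and cannot tell why Pycard was listed at 0. A difference of Pycard between groups was not detectable at these values. The ratio of Pycard to Casp1 in replicate 1 was 0.107 at 10 passages against 0.0012 at 48 passages, and Pycard was listed at 0 in both of the other libraries.

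Tslp showed the largest increase of the 10 genes on the log2(FPKM + 1) scale and the 12th largest of all genes tested. TSLP, thymic stromal lymphopoietin, whose gene lies on chromosome 18, is an epithelial cytokine that activates dendritic cells and type 2 immunity in skin. It was at an FPKM of 0.157 and 0.439 at 10 passages against 79.9 and 180.4 at 48 passages. The 48p-HFSC libraries differed from each other, and both were far above 10p-HFSCs, with a mean of 130.1 ± 71.0 against 0.298 ± 0.199 (SD, n = 2 each). The log2 difference was 6.55 (standard error 0.43, limma adjusted p = 9.2e-04), and was from 5.97 to 7.13 with each library left out in turn. Il23a (chr10:128296139-128298752, minus strand), whose product pairs with the p40 subunit to form IL-23, had an FPKM of 1.69 and 2.42 at 10 passages against 9.79 and 12.3 at 48 passages. The groups did not overlap, and the log2 difference was 1.98 (standard error 0.29, limma adjusted p = 0.0081). Under rescaling to TPM the difference of Il23a was 1.58 and was not called (adjusted p = 0.17). Csf2 (chr11:54247271-54249667, minus strand), the gene of the myeloid growth factor GM-CSF, was at 0.118 and 0 at 10 passages against 2.84 and 7.06 at 48 passages. After division by relative depth, these values were 1, 0, 20 and 28 times the lowest, each whole within 2%. The log2 difference of Csf2 was 2.40 (standard error 0.39, limma adjusted p = 0.012). With a pseudocount of 0.1 in place of 1, the difference of Csf2 was 4.96, since the 10p-HFSC values are near 0. The longest transcripts of Csf2 (800 bases) and Tslp (1134 bases) are short, and short transcripts differed between replicates. The differences were 1.80 and 6.08 once trends with transcript length and GC content were removed from each library, with both genes still called.

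**Figure D3:**
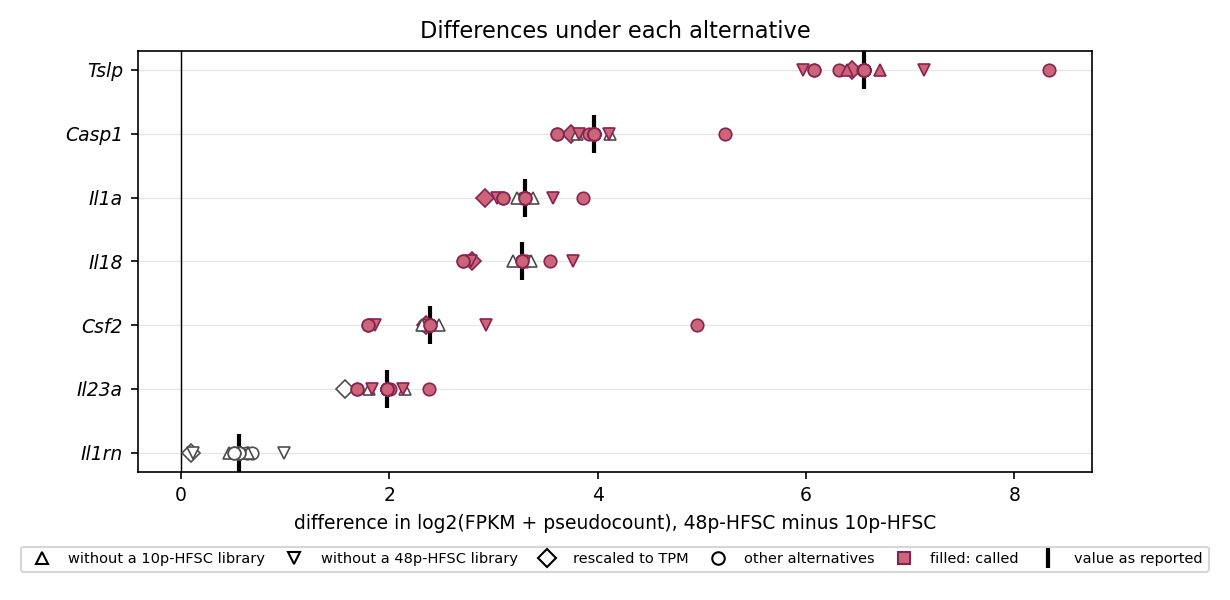
Difference between 48p- and 10p-HFSCs of the 7 tested genes under each alternative of processing, with filled symbols where the gene was called, a bar at the value as reported, triangles for fits without 1 library and diamonds for rescaling to TPM. The sign did not turn in any alternative. Calls were lost without a 10p-HFSC library (except that of Tslp), without any filter on low values (except that of Casp1) and, for Il23a, under rescaling to TPM.

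Other genes through which these cytokines are made and sensed were taken as 8 lists of 80 genes. Of these, 41 passed the filter, and 13 of them were called higher and 6 lower at 48 passages. The shares in all genes tested are those given above, 10.8% and 9.15%. Of the 13, 10 passed the filter through 48p-HFSCs only (Il1r1, Il18r1, Sigirr, Nlrp10, P2rx7, Casp4, Gsdma, Gsdmc2, Gsdmd and Il7), and of the 6, Il1rap and Crlf2 passed through 10p-HFSCs only. These 12 genes could pass only by differing, so that the counts say little about the lists. The median log2 difference was 0.24 over the 41 genes, against -0.03 over all genes tested. Without replicate 1 or replicate 2 of 10p-HFSCs, 2 of the 41 genes were called, Il1rap and Crlf2, both lower.

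Receptor genes were called in both directions. Of 9 receptor and decoy genes of the IL-1 family, 5 were tested, of which 3 were called higher and 1 lower. The shares in all genes tested were 10.8% and 9.15%. Each called gene passed the filter through the values of 1 group only, so that no other direction was open to it. Il1rap, the co-receptor subunit that IL-1α, IL-1β, IL-33 and IL-36 need for signalling, fell from 9.44 and 6.90 at 10 passages to 0.095 and 0.195 at 48 passages. On the log2 scale its difference was -2.99 (standard error 0.27, adjusted p = 0.0017 in limma). Il1r1, the subunit that binds IL-1, rose from 0.108 and 0.075 to 5.24 and 1.43, with unequal 48p-HFSC libraries and an adjusted p of 0.040 from limma. Il1r1 was called in 10 of 16 alternatives of processing. Ligand and binding subunit were thus higher in 48p-HFSCs, and the shared co-receptor subunit lower. Il18r1, the binding subunit for IL-18, was at 2.03 and 2.66 at 48 passages and listed at 0 at 10 passages in each library (log2 difference 1.73, limma adjusted p = 0.0058). Its partner Il18rap was at most at 0.415 in any library. Sigirr, a receptor of the family that dampens IL-1 signalling, rose from 0.219 and 0.267 to 8.71 and 6.27 (log2 difference 2.76, limma adjusted p = 0.0022). Il18bp, the secreted decoy of IL-18, was at 0.611 and 1.08 at 10 passages against 0.836 and 1.05 at 48 passages, with overlapping groups. The ratio of Il18 to Il18bp was 6.87 and 3.33 at 10 passages against 78.3 and 31.2 at 48 passages. The decoy receptor gene Il1r2 was at most at 0.052, and Il1rl1, the receptor of IL-33, at most at 0.538.

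Of 9 genes of alarmin receptors and of partner subunits of Il23a, 1 was high enough to be tested. Crlf2, the specific subunit of the TSLP receptor, was at 6.57 and 6.92 at 10 passages and listed at 0 in each library at 48 passages (log2 difference -2.95, limma adjusted p = 0.0012). Crlf2 passed the filter through its 10p-HFSC values only, so that no other direction was open to it. Tslp and Crlf2 thus stood in opposite order, the receptor gene above the ligand gene in 10p-HFSCs and the ligand gene alone in 48p-HFSCs. Il7r, which pairs with Crlf2, was at most at 0.294. For Csf2, both receptor genes Csf2ra and Csf2rb were listed at 0 in all libraries. Il12b, the partner subunit of Il23a, was also listed at 0 in all libraries.

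**Figure D4:**
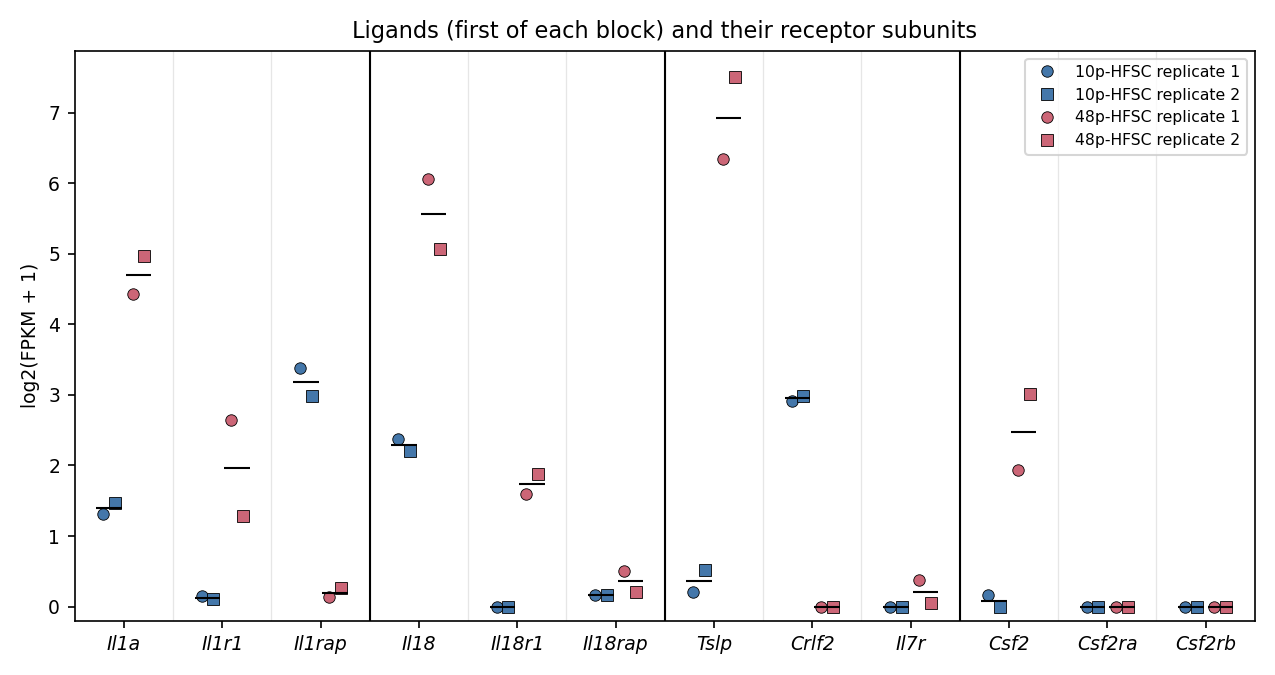
Levels of Il1a, Il18, Tslp and Csf2, each followed by its receptor subunits, on the log2(FPKM + 1) scale with 1 point for each library and a line at the mean of each group. Il1rap and Crlf2 are present in 10p-HFSCs and near or at 0 in 48p-HFSCs, where the ligands are high.

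Downstream of the receptors, 10 of 11 signalling genes were tested, and 1 was called, Tab2, which was lower. Tab2, an adaptor of the kinase TAK1, fell from 50.5 and 42.7 to 15.7 and 9.94 (log2 difference -1.81, limma adjusted p = 0.013). The adaptor gene Myd88 was at 12.7 and 13.2 at 10 passages against 7.38 and 1.23 at 48 passages, with an adjusted p of 0.11 from limma. Irak1, Tollip, Tab1 and Map3k7, the other genes of this list with a group mean of 10 or more, had log2 differences from -0.65 to 0.89 and were not called. The values of Irak1, a kinase bound to the receptor, were 29.2 and 29.2 at 10 passages against 16.9 and 19.6 at 48 passages.

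Of 13 inflammasome sensors and regulators, 6 were tested, 3 were called higher and 1 lower. Aim2, a sensor of cytosolic DNA that signals through ASC, rose from 12.2 and 11.1 to 42.4 and 59.7 (log2 difference 2.02, limma adjusted p = 0.0064), and was not called under rescaling to TPM (adjusted p = 0.074). Nlrp10, a member of the NLR family expressed in keratinocytes, was at 0.069 and 0 at 10 passages against 10.5 and 2.62 at 48 passages (log2 difference 2.64, limma adjusted p = 0.023). P2rx7, an ATP-gated channel, rose from 0.068 and 0.058 to 1.71 and 2.1. Nek7, a kinase that binds the sensor NLRP3, fell from 60.2 and 52.4 to 25.4 and 14.2. Nlrp3 itself was at most at 0.072 in any library, and Nlrc4 and Nlrp1b were listed at 0 in all. Txnip was at 28.4 and 17.1 at 10 passages against 16.3 and 6.74 at 48 passages, and was not called.

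Of 13 caspase and gasdermin genes, 6 were tested. The 4 that were called higher, Casp4, Gsdmd, Gsdmc2 and Gsdma, all passed the filter through their 48p-HFSC values only, so that no other direction was open to them. Casp4, which encodes the mouse caspase-11 and lies 1.6 kb from Casp1 on chromosome 9, rose from 0.197 and 0.055 to 16.1 and 14.4 (log2 difference 3.85, standard error 0.26, limma adjusted p = 9.3e-04). Casp12 was at 5.27 and 3.44 at 10 passages against 9.35 and 2.05 at 48 passages, with overlapping groups. Gsdmd, the gene of the pore-forming gasdermin D that inflammatory caspases cleave, was at 10.3 and 8.85 at 48 passages and listed at 0 in each library at 10 passages (log2 difference 3.40, limma adjusted p = 0.0011). Gsdmc2 rose from 0.052 and 0.109 to 31.2 and 7.71, and reads of this gene could have been split with its close copies Gsdmc, Gsdmc3 and Gsdmc4. Gsdma, which is expressed in skin, rose from 0.116 and 0.162 to 2.1 and 1.95. Casp8 was at 15.8 and 15.3 at 10 passages against 20.1 and 9.95 at 48 passages, and was not called. Pycard was near 0 in all 4 libraries, those with higher and those with lower Casp1, Casp4, Gsdmd and Aim2 alike.

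Calpain cleaves the precursor of IL-1α, and all 4 genes of the calpain system were tested. Capn1 (limma adjusted p = 0.029) and Cast, the gene of the inhibitor calpastatin (limma adjusted p = 0.030), were called higher, with log2 differences of 1.11 and 1.29. Both calls were lost under rescaling to TPM (adjusted p = 0.48 for Capn1 and 0.27 for Cast), that of Capn1 also under quantile normalization, and that of Cast also without replicate 2 of 48p-HFSCs (0.072). Capn2 and Capns1 were not called, and Capns1 was at 84.4 and 94.8 at 10 passages against 187 and 551 at 48 passages.

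**Figure D5:**
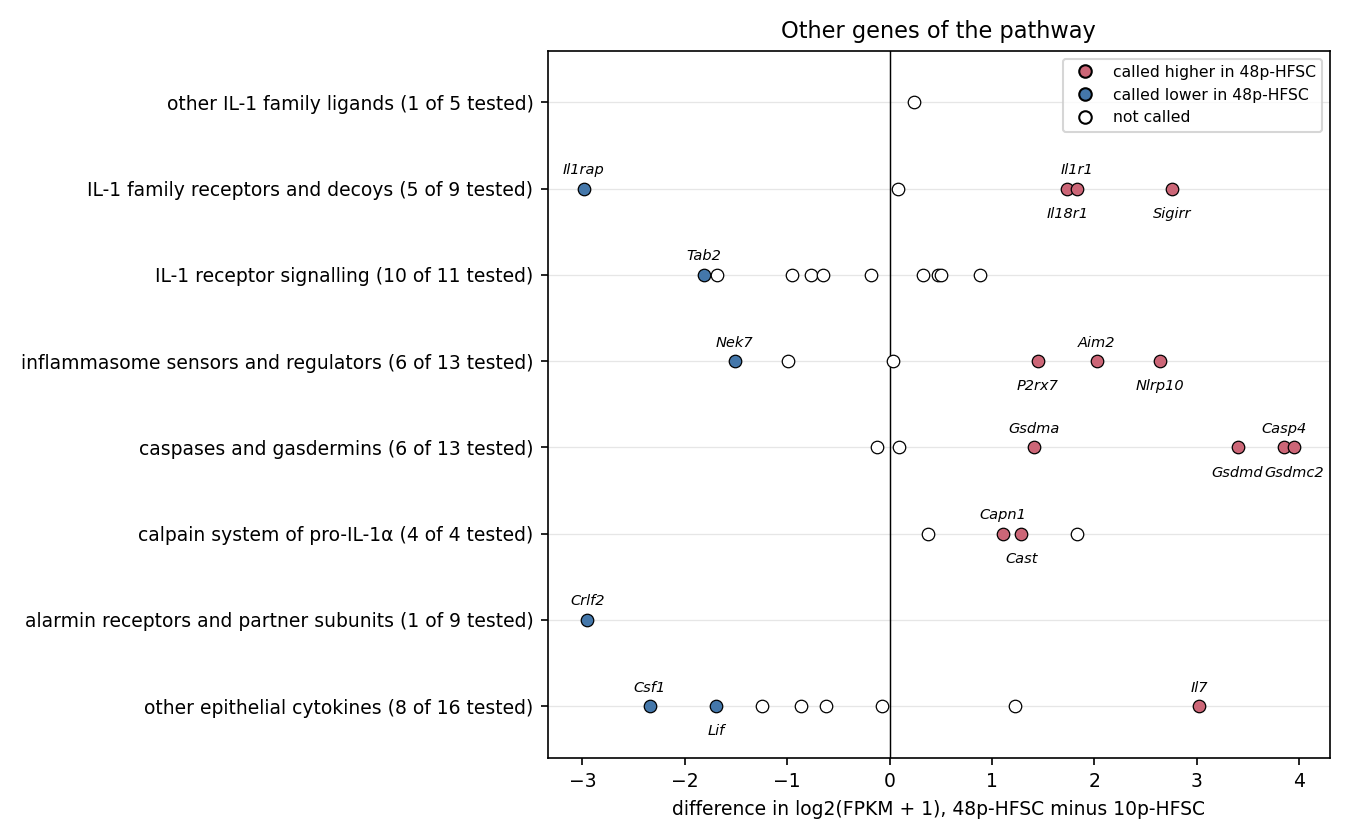
Difference in log2(FPKM + 1) between 48p- and 10p-HFSCs for the 41 tested genes of 8 lists, with 1 point for each gene, red for called higher, blue for called lower and open for not called. Il1rap and Crlf2 lie farthest to the left, and Gsdmc2, Casp4 and Gsdmd farthest to the right.

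Of 5 other IL-1 family genes, only Il1f9, the gene of IL-36γ, passed the filter, with 0.643 and 1.23 at 10 passages against 1.22 and 1.30 at 48 passages, and it was not called. The other 4 were at most at 0.401. Of 16 other epithelial cytokine genes, 8 were tested, 1 was called higher and 2 lower. Il7, a lymphocyte growth factor, was listed at 0 at 10 passages against 10.3 and 4.88 at 48 passages (log2 difference 3.02, limma adjusted p = 0.0041). Csf1, the macrophage growth factor, fell from 34.6 and 39.2 to 8.72 and 4.73 (log2 difference -2.34, limma adjusted p = 0.0073), opposite to Csf2. Lif fell from 16.1 and 18.8 to 6.35 and 3.40 (log2 difference -1.69, limma adjusted p = 0.022), and was not called under rescaling to TPM (adjusted p = 0.068). Il24, the most abundant of this list, was at 74.5 and 83.4 at 10 passages against 50.5 and 110.7 at 48 passages, with overlapping groups. Areg, Tgfa and Il15 also had a group mean of 10 or more and were not called, with log2 differences of -0.62, -0.86 and 1.22. Il7 and Il15 also stand in the study's own list of genes higher in 48p-HFSCs, drawn from these same libraries. The direction of Il7 here is thus not independent evidence, and Il15 was called by the study but not in this fit. Il6 and Tnf, the inflammatory cytokines that IL-1 induces in many cells, were at most at 0.332 and 0.203.

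Cytokine genes are also expressed by immune cells that skin can hold. Of 11 leukocyte markers, Cd3e and Tyrobp were listed at 0 in all libraries, and Ptprc, Itgam and Adgre1 were at most at 0.071. The summed FPKM of the list was 8.94 to 9.50 in 10p-HFSCs and 121 to 185 in 48p-HFSCs, through Cd74 (0.335 and 0.201 against 61.2 and 102.2) and Cd68 (7.30 and 6.81 against 53.2 and 78.7), both called higher. Lyz2 was also called higher, though not under rescaling to TPM (adjusted p = 0.11) or after the correction for length and GC content. Of the 4 leukocyte markers tested, 3 were thus called, and epithelial cells can express these 3 genes. Their part in the cytokine values was not tested. Of 5 melanocyte markers, Tyr was at 0.095 and 0.286 at 10 passages against 1.33 and 9.48 at 48 passages and was not called, and Dct was listed at 0 in all libraries. The sum of the melanocyte list was 1.24 to 1.29 in 10p-HFSCs against 3.85 to 11.7 in 48p-HFSCs, and its part in the cytokine values was not tested either. All 4 Langerhans cell markers and all 5 mast cell markers were listed at 0 in every library.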

How the data were processed

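Polyadenylated RNA of 2 libraries of 10p-HFSCs and 2 of 48p-HFSCs was sequenced from a stranded library kit. The authors deposited FPKM values, 1 for each gene symbol and library, which they computed with Cufflinks after alignment to mm10. The submitters' processing notes name TopHat2 2.1.1, Bowtie2 2.2.8, SAMtools 0.1.18 and Cuffdiff 2.2.1, whereas the paper's methods give other Bowtie2 and SAMtools versions. The gene annotation, the strand setting and the handling of reads with several positions are not given in the sources used here. The same holds for the scaling of libraries in Cuffdiff.

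Libraries were grouped by the passage number in their labels. FPKM values are not counts, so no test for counts was run. A pseudocount of 1 was added, and the log2 values of the 11018 genes that reached an FPKM of 1 in 2 or more libraries were fitted with limma 3.58.1 (R 4.3.3), where eBayes used a trended prior. The fit was tested on simulated data. Relative depth was the most frequent ratio among values under 0.3 in a pair of libraries, and the absolute depth is unknown, so no counting interval is given. Gene positions and transcript lengths came from GENCODE M21 and sequences from RefSeq, both on GRCm38, the assembly also called mm10 and built from another mouse strain. The 10 genes and all lists were chosen with earlier results of these data known. Named were the 10 genes and, in the other lists, genes that were called or had a group mean of at least 10. Genes below these limits that are named beside them (such as Il18rap, Il7r, Nlrp3, Il6 and Tnf) were chosen after their values were seen. Alternatives were a pseudocount of 0.1, other filters and scalings, a constant variance prior, no limit on the fold, a block for replicate number and leaving out each library. After seeing the data, a spline correction (4 degrees of freedom) of each library for length and GC content was chosen in addition, as was a fit without filter that left out genes at 0 in all libraries. Other computations used Python 3.11.15.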

Additional observations from a re-analysis of the deposited data

How the results depend on the processing

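Tslp, Casp1, Il1a, Il18, Il23a, Csf2 and Il1rn kept their direction in all 16 alternatives. The number of the 10 genes called higher was from 1 to 6 with each library left out, and without any filter on low values, a fit that includes the 7667 genes at 0 in all libraries, 1 was called (Casp1). When these 7667 genes were left out, a fit chosen after seeing the data, 6 were called. Of the 80 other pathway genes, from 0 to 15 were called higher and from 2 to 9 lower with each library left out, and 2 and 0 without any filter. Over all genes, 1189 were called higher and 1008 lower. With each library left out these counts were from 35 to 1936 and from 140 to 1875. Without any filter they were 116 and 114, and 637 were called lower when genes at 0 in all libraries were left out. Under rescaling to TPM 616 were called higher, and the share of higher among all calls was 40.6%, against 54.1% without it. The cause of these moves was not tested, except that fits without a 10p-HFSC library take the spread from the 48p-HFSC pair, in which 1871 genes differed by at least 2-fold, against 151 in the 10p-HFSC pair. The lone library of a group was assumed to vary like the other group. The log2 ratio of Il1a to Il1rn differed by 2.51 to 4.07 and that of Il18 to Il18bp by 2.70 to 4.03 with each library left out.

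The groups share replicate numbers, but the labels do not say what a number marks. Deviations of same-numbered libraries correlated at 0.41 across genes. With a block for replicate number, 6 of the 10 genes were called higher, as without it, 15 pathway genes higher and 8 lower, and 1613 and 1497 of all genes. The pathway genes called with the block alone were Capns1 and Il15, which were higher, and Myd88 and Il19, which were lower, with adjusted p-values of 0.0028, 0.0045, 0.0048 and 0.014. With the block and the correction for length and GC content the numbers were 6 of the 10 genes, 16 and 9 pathway genes, and 1474 and 1290 of all genes. Il1b, Il33 and Pycard were below the filter. Without it, their adjusted p-values were 0.33, 0.69 and 0.996, and 0.13, 0.39 and 0.72 when genes at 0 in all libraries were left out.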

Other observations

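The nearest protein-coding neighbour that does not overlap is given for each called gene without a test, except Casp4 next to Casp1, whose values stand above. Stat2, a mediator of interferon signalling, lies 3.3 kb from Il23a on chromosome 10 and was at an FPKM of 4.48 and 4.71 at 10 passages against 18.3 and 11.8 at 48 passages. Ckap2l, 2.4 kb from Il1a, was at 34.9 and 25.7 at 10 passages against 17.7 and 20.0 at 48 passages. Il3, 15.6 kb from Csf2, was listed at 0 in 3 libraries and at 0.324 in replicate 2 of 48p-HFSCs. Wdr36, 17.4 kb from Tslp, was at 21.6 and 17.8 at 10 passages against 31.7 and 36.5 at 48 passages. Sdhd, 14.5 kb from Il18, was at 96.8 and 128.2 at 10 passages against 82.6 and 135 at 48 passages.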
